A study of Mus musculus with 42 samples.

Results

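Atf4 encodes a stress-induced transcription factor, and the 10 genes described here are Atf4, 6 genes known as its targets (Ddit3, Chac1, Trib3, Asns, Psat1 and Phgdh) and 3 enzymes of the mitochondrial folate pathway (Shmt2, Mthfd2 and Aldh1l2). They were taken by gene symbol from 2 deposited tables. The brain table holds 11 rows for these 10 symbols among 50765 rows, because Ddit3 appears under a pair of gene identifiers (ENSMUSG00000025408 and ENSMUSG00000116429, the latter called the second row of Ddit3 below). The testes table holds 9 rows for 8 of the symbols among 27409 rows, and Chac1 and Phgdh were not analysed here in testes.

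The mice carried a Cas9-made deletion of 89 bp across exon 15 and intron 16 of Pcif1, which codes for the methyltransferase that makes m6Am, an adenosine methylated at its base and ribose directly after the mRNA cap. Residues of the active site are lost with it and the reading frame then ends early, and all knockouts come from that line, begun in B6D2F1/J hybrid embryos and crossed to C57BL/6J. Ribosome footprinting used adult brain of wild-type (WT) and Pcif1 knockout (KO) mice, and sequenced ribosome-protected fragments (footprints) and input RNA, with 3 libraries in each of the 4 groups. The m6Am-Exo-Seq assay used adult testes of Pcif1 heterozygous (HET) and KO mice, and sequenced capped RNA ends precipitated with an antibody against m6A (IP) beside input, again with 3 libraries in each of 4 groups. The testes controls therefore carried 1 mutant copy, whereas the brain controls carried none. No other treatment is given for any of these groups.

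When amino acids run short, proteins misfold or mitochondria are disturbed, kinases phosphorylate the initiation factor eIF2, general translation falls, and Atf4 mRNA is translated more through upstream reading frames in its leader. ATF4 then switches on genes for amino acid synthesis and uptake, and, with prolonged stress, Ddit3 (the factor CHOP), Chac1 and Trib3. Serine made by Phgdh and Psat1 feeds the mitochondrial enzymes Shmt2, Mthfd2 and Aldh1l2, which pass its one-carbon unit along folate. In brain, astrocytes are the main site of serine synthesis.

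The base at which transcription starts matters for the m6Am assay, since PCIF1 methylates only an adenosine there. RefSeq promoter windows (build GRCm38.p6, 250 bases before the start and 50 after) were found for 9 of the 10 genes, Aldh1l2 being the exception. The annotated start was A for Asns, Trib3 and 1 of the 2 windows of Psat1, and this was the case for 34.4% of all 32851 windows. The 30 bases around 6 annotated starts are shown because they set genes with an annotated A start against genes with G or C. The capital marks the annotated first transcribed base.

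Asns (chr6:7693200-7693229, minus strand): tgaaacttcccgcacgcgttAcagaagccc

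Trib3 (chr2:152344051-152344080, minus strand): ggccgctgggcgtcagcagcAgattagctc

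Psat1 (chr19:15925050-15925079, minus strand): cttctgagcgagagccaatcAgtgagcggc

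Atf4 (chr15:80255164-80255193, plus strand): gctttgaccgtcagagctttGgctaggtgt

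Ddit3 (chr10:127290773-127290802, plus strand): tactcgctctccgctcttgaGgtcagttat

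Shmt2 (chr10:127522435-127522464, minus strand): tgcgcatgcgcagggaacgcCtctttcact

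The annotated base is 1 position, and starts used in these tissues can lie elsewhere.

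ATF4 binds, together with C/EBP partners, to a composite element, searched here as TGATGNAA on one strand and TTNCATCA on the other. It occurred in the windows of 3 genes (Asns, Chac1 and Trib3), that is in 3 of 10 windows against 3.97% of all windows. The share is not particular to these genes. Among the gene lists used below it was 38.5% of windows for aminoacyl-tRNA synthetases, 24% for further ATF4 and CHOP targets and 16.7% for amino acid transporters. In the other lists it was 0 to 6.25%. The 3 stretches are shown because they are the only matches in windows of the 10 genes, and capitals mark the match.

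Asns (chr6:7693214-7693243, minus strand): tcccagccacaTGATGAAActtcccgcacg

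Chac1 (chr2:119351038-119351067, plus strand): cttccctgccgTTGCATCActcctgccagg

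Trib3 (chr2:152344028-152344057, minus strand): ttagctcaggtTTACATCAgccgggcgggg

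A match of letters is a description and was not tied to any binding measurement.

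Values are signals, that is read numbers scaled by a factor per library, and are not corrected for gene length, so levels are compared between libraries and not between genes. Brain libraries held 5528739 to 17443754 estimated reads, the lowest being input KO replicate 2, and testes libraries 1816831 to 6574479 reads. Replicates are numbered here by the order of the library titles within a group. Equal numbers therefore do not tie an input library to a footprint or IP library. Footprint WT replicate 2 stood apart: its genes lay at a median distance of 0.49 on the log2 scale from the other libraries of its group, against 0.26 to 0.37 in the other 5 footprint libraries. Pcif1 RNA itself was at 253, 318 and 388 in WT brain input and 254, 201 and 259 in KO, a log2 difference of -0.41 (adjusted p = 0.49, limma). A small deletion leaves most of the transcript to be counted, so this level does not check the genotype. In testes input Pcif1 was at 5.53 to 10.4 in HET and 1.64 to 7.98 in KO, too low to test. Defining markers of neurons, astrocytes and oligodendrocytes in brain and of spermatocytes and spermatids in testes were present. Neuron markers summed to 17115 to 17977 in WT and 17421 to 17516 in KO brain input. Sums of the other types named here are given beside the results. Differences are log2 values on signal + 1 with their standard error, tested with limma and Benjamini-Hochberg adjustment over all genes tested, and a gene is called when the adjusted p is below 0.05. Brains came from 3 mice per genotype, with input taken from the lysates used for footprints. Whether the testes libraries came from separate animals is not given in the sources used here, so p-values there measure only the spread between these samples, which may be technical.

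In brain input RNA, Aldh1l2 was the 1 gene of the 9 rows tested that differed between genotypes, and it was 3.90-fold higher in KO. Shmt2, Asns and Atf4 also had every KO library above every WT library, but did not pass the test. Called genes made up 0.255% of the 15298 genes tested (0.176% called higher), and genes with every KO library above every WT library made up 10.6%, against 4 of 9 rows here. The median log2 difference over the 9 rows was 0.27, against 0.02 over all genes tested. The genes were chosen with earlier results of these data known, so such shares and medians, here and in testes, only describe the rows.

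Atf4 in input was at 244, 219 and 288 in WT and at 316, 308 and 361 in KO. All 3 KO libraries were above the highest WT library, by a narrow margin. The log2 difference was 0.40 ± 0.13 (SE, 3 against 3 libraries, adjusted p = 0.40, limma).

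Among the stress-end targets, Chac1, which degrades glutathione, was at 20.7, 22.6 and 37.7 in WT input and at 37.6, 36.7 and 44.9 in KO. The highest WT library reached the level of the lower KO libraries, and the difference was 0.59 ± 0.29 (adjusted p = 0.52, limma). Ddit3 was at 52.4, 45.9 and 42.1 in WT and at 41.0, 59.7 and 47.1 in KO, with overlap (0.06 ± 0.21, adjusted p = 0.93, limma). Trib3, a pseudokinase that restrains ATF4 signalling, was barely present, at 2.67, 3.06 and 3.58 in WT input and 4.35, 2.49 and 8.60 in KO, and was under the filter of a signal of 10 in 3 libraries. The second row of Ddit3, at 3.14 to 9.32 in all 6 input libraries, was also under it.

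Among genes of amino acid synthesis, Asns, which makes asparagine, was at 299, 391 and 418 in WT input and at 421, 444 and 462 in KO. The KO libraries began just above the highest WT library (0.27 ± 0.14, adjusted p = 0.54, limma). Phgdh, the enzyme that commits glycolytic carbon to serine, lay in the other direction, at 366, 560 and 522 in WT and 283, 198 and 398 in KO. The highest KO library lay above the lowest WT library, and the log2 difference was -0.75 ± 0.28 (adjusted p = 0.43, limma). Psat1, the next enzyme, was at 552, 436 and 437 against 411, 269 and 546, with wide overlap (-0.27 ± 0.25, adjusted p = 0.72, limma). None of these 3 differences passed the test.

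Among the mitochondrial folate enzymes, Aldh1l2, which oxidises formyl-tetrahydrofolate and yields NADPH, was at 18.3, 16.9 and 17.4 in WT input and at 71.6, 82.5 and 61.6 in KO. The WT libraries lay close together and every KO library was far above them. The log2 difference was 1.97 ± 0.21 (adjusted p = 0.024, limma), and the gene ranked 21 by p among all genes tested. The level rests on few reads, an estimated 24.3 to 30.9 per WT library and 44.3 to 114 per KO library. Leaving out any 1 of the 6 libraries kept the difference between 1.86 and 2.07 but ended the call (adjusted p 0.095 to 0.13, limma). Without KO replicate 2, the library with the fewest reads, the other two KO libraries still stood at 71.6 and 61.6.

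An annotated long non-coding RNA, Gm51778, overlaps 26390 bases of Aldh1l2 in RefSeq, and whether counting used strand is not given in the sources used here, so the source of these reads is uncertain. The 6 nearest tested protein-coding genes, looked up after the result was seen, differed by -0.09 to 0.26 and none was called.

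Shmt2, which splits serine into glycine and a one-carbon unit, was at 31.3, 33.4 and 27.1 in WT input and 53.6, 85.0 and 54.8 in KO. No WT library reached the lowest KO library, and the difference was 1.02 ± 0.24 (adjusted p = 0.26, limma). The highest of the KO values came from KO replicate 2. Mthfd2, the dehydrogenase that follows Shmt2, was at 23.7, 60.6 and 49.0 against 29.3, 49.1 and 32.1, and the groups overlapped (-0.20 ± 0.39, adjusted p = 0.88, limma). The KO libraries of Aldh1l2 and Shmt2 thus lay above all WT libraries while those of Mthfd2 did not, and of the 3 folate enzymes only Aldh1l2 passed the test.

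**Figure D1:**
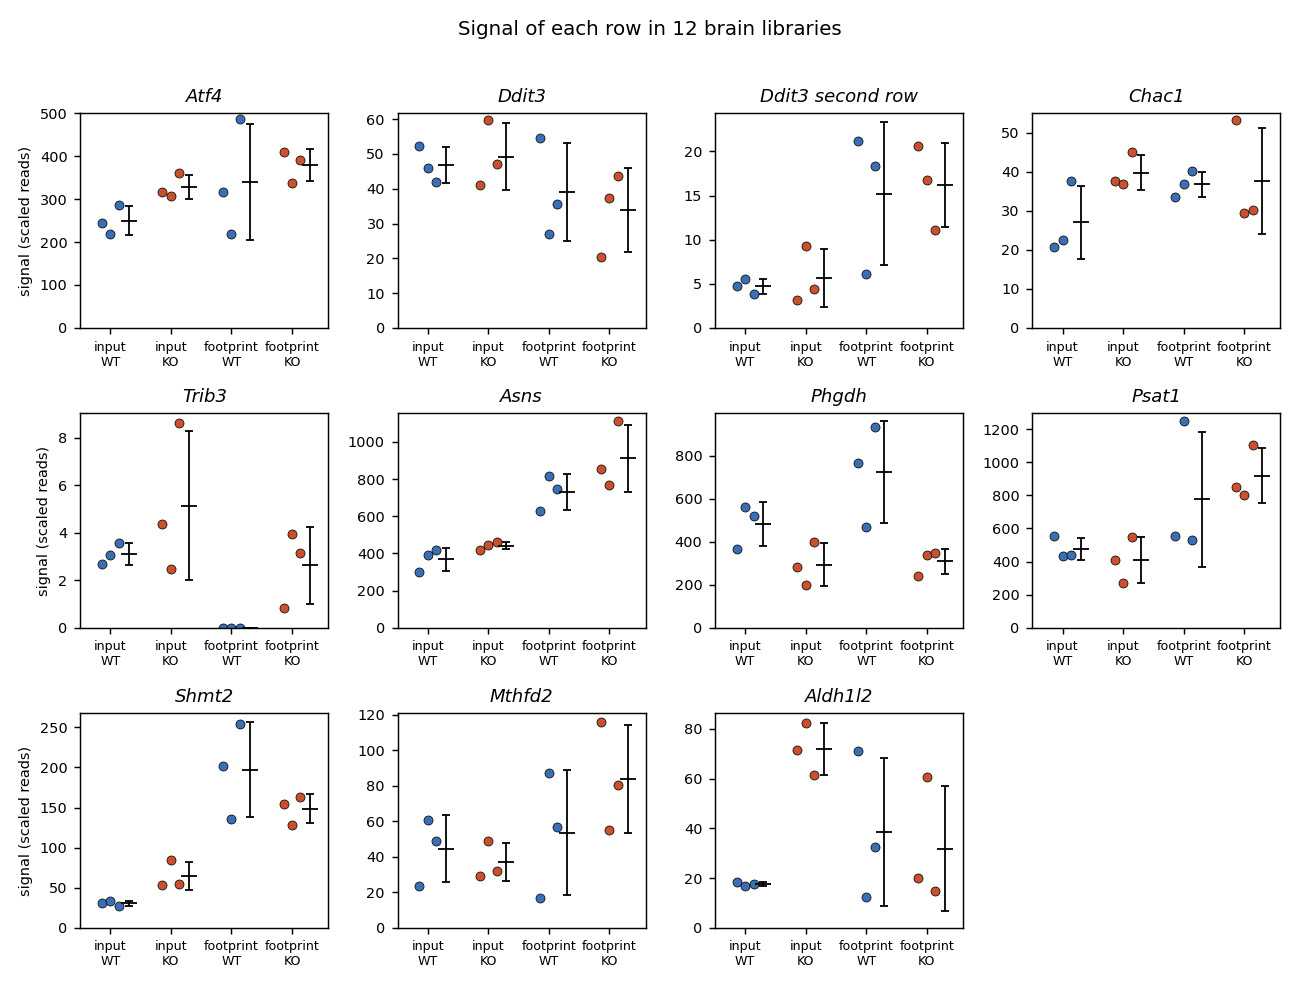
Signal of the 11 brain rows (y axis, scaled reads, linear from 0) in input and footprint libraries of WT (blue) and KO (orange), 3 points a group, with the mean and SD as a bar beside them. In input, Aldh1l2 lies at 16.9 to 18.3 in WT and 61.6 to 82.5 in KO, while its footprints overlap between genotypes.

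Cell-type markers in the same input libraries were not level. The summed signal of 5 oligodendrocyte markers was 18242 to 19587 in WT and 27190 to 29045 in KO, and that of 8 astrocyte markers was 14753 to 16113 in WT and 17085 to 17799 in KO. Most of the difference in the astrocyte sum came from Slc1a2 (mean 6802 in WT and 8308 in KO). Over the 8 markers the median log2 difference was 0.05, from -0.18 to 0.29, with none called by limma and 1 at an unadjusted p below 0.05. No marker of either list was at 0 in every library of a group. The sum of 5 microglia markers was 1105 to 1182 in WT and 874 to 1005 in KO. Of these 5, 0 were called by limma and 2 had an unadjusted p below 0.05. Endothelium and choroid plexus sums overlapped between genotypes. The part of all these markers in the values of Aldh1l2, Shmt2 and Phgdh was not tested. In whole tissue, fewer cells of a type and less RNA per cell cannot be told apart.

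Footprints are RNA fragments protected by ribosomes, given here as 1 signal per gene. Whether only those on the coding sequence were counted is not given in the sources used here. None of the 10 rows tested was called in KO against WT footprints by limma with Benjamini-Hochberg adjustment, against 0.223% of 14377 genes, and 1 row (Phgdh) had an unadjusted p below 0.05. Aldh1l2 footprints overlapped between genotypes, and Phgdh was the 1 row whose groups did not overlap, which 17.2% of all genes tested showed in either direction.

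Phgdh footprints were at 765, 468 and 937 in WT and 242, 339 and 348 in KO. Every KO library was below the lowest WT library, which was the WT replicate that stood apart. The log2 difference was -1.18 ± 0.28 (adjusted p = 0.34, limma). Without WT replicate 2 it was -1.47 with adjusted p = 0.021 (limma), a fit in which the genes called among all those tested rose from 32 to 956. Phgdh was thus lower in KO in both kinds of library, at -0.75 in input and -1.18 in footprints, and passed the test in neither with all libraries. Summed astrocyte markers in footprints overlapped between genotypes, at 49031 to 56125 in WT and 50121 to 55256 in KO, and oligodendrocyte markers were at 31212 to 46597 in WT and 56387 to 62656 in KO. Their part in the Phgdh values was not tested.

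Aldh1l2 footprints were at 70.9, 12.3 and 32.5 in WT and at 20.2, 60.7 and 14.6 in KO. Both groups ranged over several-fold, from an estimated 8.12 to 50.1 reads per library, and the difference was -0.21 ± 0.74 (adjusted p = 0.92, limma). Shmt2 footprints were at 202, 136 and 254 in WT and 154, 128 and 164 in KO (-0.36 ± 0.27, adjusted p = 0.60, limma), so the KO values sat inside or below the WT range rather than above it. Mthfd2 footprints ranged from 16.7 to 87.2 in WT and from 55.0 to 116 in KO (0.85 ± 0.60, adjusted p = 0.59, limma).

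Atf4 footprints were at 318, 219 and 486 in WT and 410, 338 and 392 in KO, with KO inside the WT range (0.23 ± 0.29, adjusted p = 0.76, limma). Asns footprints were at 626, 818 and 744 in WT and 857, 766 and 1113 in KO, overlapping at 1 library (0.31 ± 0.19, adjusted p = 0.54, limma). Psat1 footprints were at 552, 1247 and 529 in WT, where the high value is again replicate 2, and 852, 801 and 1106 in KO (0.35 ± 0.34, adjusted p = 0.69, limma). Chac1 (-0.02 ± 0.34) and both rows of Ddit3 (-0.21 ± 0.42 and 0.20 ± 0.58) had wide errors around 0. Trib3 footprints were listed at 0 in all 3 WT libraries and at 0.814, 3.94 and 3.15 in KO, too low to test.

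The ratio of footprints to input, a measure of translational efficiency, addresses whether ribosome occupancy changed beyond the RNA level. No row of the 10 tested was called for a KO to WT difference in it by limma, against 0.188% of 16527 genes, and 2 rows (Shmt2 and Aldh1l2) had an unadjusted p below 0.05.

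For Shmt2 the ratio of mean footprint to mean input signal was 6.44 in WT and 2.31 in KO, a log2 difference of -1.39 ± 0.37 (adjusted p = 0.33, limma). Mean input was higher and mean footprint signal lower in KO, and neither of these differences was called on its own. Without footprint WT replicate 2 it was -1.63 with adjusted p = 0.023 (limma), in a fit that called 874 genes rather than 31. The authors' deposited table gives a log2 value of -1.39 and an adjusted p of 0.063 for Shmt2.

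For Aldh1l2 the ratio of means was 2.20 in WT and 0.443 in KO, a log2 difference of -2.18 ± 0.84 (adjusted p = 0.49, limma), which rests on the input libraries, since its footprints did not separate. The authors' deposited table gives -2.30 with an adjusted p of 0.25 for Aldh1l2. The third folate enzyme, Mthfd2, had a difference of the opposite sign (1.05 ± 0.79, adjusted p = 0.68, limma).

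Atf4, whose translation is the usual sign of eIF2 phosphorylation, had a ratio of means of 1.36 in WT and 1.16 in KO (log2 difference -0.17 ± 0.34, adjusted p = 0.90, limma). Its signal may include footprints on the upstream reading frames, so this ratio cannot be read as translation of the ATF4 coding sequence. For Asns, the ratios were 1.97 and 2.06 (0.04 ± 0.24, adjusted p = 0.97, limma), the smallest difference among the rows. The remaining rows ranged from -0.60 ± 0.43 for Chac1 to 0.62 ± 0.47 for Psat1. The authors' deposited table lists none of these rows at an adjusted p below 0.05.

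Within WT brain, footprints against input set the baseline for these genes. Shmt2, Asns and the second row of Ddit3 were called higher in footprints, 3 of 10 rows against 54.3% of genes called in either direction and 25.2% called higher. Shmt2 led with 2.61 ± 0.26 (adjusted p = 8.28e-06, limma), its lowest footprint library at 136 and its highest input library at 33.4. Asns was at 0.99 ± 0.17 (adjusted p = 0.00052, limma), and the second row of Ddit3 at 1.36 ± 0.51 (adjusted p = 0.041, limma) from 4 to 15 reads per footprint library.

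This comparison depends on how the libraries are scaled. With library totals made equal, the median of all genes moved from -0.09 to -1.18, the share of higher calls from 46.4% to 10.7%, and Asns from 0.99 to -0.09. The second row of Ddit3 fell to 0.42 and lost its call (adjusted p = 0.46, limma), while Ddit3 (-1.35, adjusted p = 0.0046, limma) and Atf4 (-0.69, adjusted p = 0.032, limma) were then called lower. The call of the second row was also lost without a filter (adjusted p = 0.089, limma) and was kept in 5 of the 12 fits that leave out 1 library, whereas those of Shmt2 and Asns were kept in all 12.

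**Figure D2:**
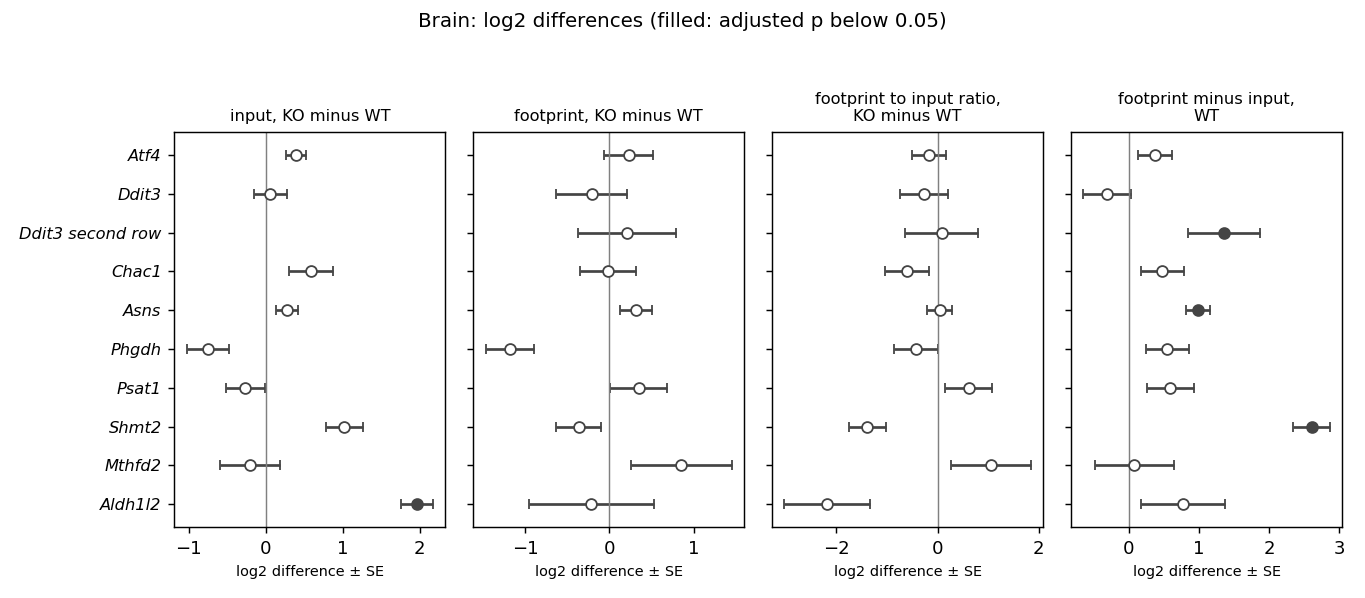
Log2 differences (x axis, ± SE) of the tested brain rows in 4 comparisons, filled where the adjusted p is below 0.05 (limma). Aldh1l2 stands at 1.97 in input and -2.18 in the ratio, and Shmt2 at 1.02 and -1.39.

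Other genes of the stress response and of folate metabolism were examined as 7 lists. In KO against WT brain input, none was called: 0 of 15 further ATF4 and CHOP targets, 0 of 11 amino acid transporters, 0 of 20 aminoacyl-tRNA synthetases, 0 of 19 eIF2 kinases, phosphatases and eIF2B subunits, 0 of 25 other serine, glycine and folate enzymes, 0 of 19 chaperones of the ATF6 and XBP1 branches, and 0 of 12 mitochondrial chaperones and proteases. Unadjusted p-values below 0.05 (limma) were found for 1, 2, 0, 5, 2, 2 and 1 of them, in that order. Their median log2 differences ran from -0.15 for the ATF6 and XBP1 chaperones to 0.09 for the synthetases, around the 0.02 of all genes tested. Footprints called 0 in the same 7 lists, with list medians of -0.00 to 0.15, and so did the footprint to input ratio, with medians of -0.18 to 0.16. Genes with an unadjusted p below 0.05 numbered 1, 0, 2, 2, 4, 2 and 0 in footprints and 1, 1, 1, 2, 3, 1 and 1 in the ratio (limma). With 0.255% of all genes called in input, 0 calls in lists of this size is near the background and is no result about the lists.

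In testes input RNA, Ddit3 was lower in KO in both of its rows, and no other row of the 7 tested was called. Called genes made up 9.33% of 11278 tested, with 6.01% called lower. Psat1 in 1 direction and Asns in the other had groups that did not overlap, giving 1 row higher and 3 rows lower of 7. Over all genes these shares were 13.3% and 16.5%. Both rows of Ddit3 are among the 3 lower rows, so 1 gene is counted more than once there. The median log2 difference over the 7 rows was 0.10, against -0.00 over all genes tested.

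Ddit3 was at 427, 517 and 413 in HET input and at 271, 331 and 319 in KO. All KO libraries lay below the lowest HET library. The log2 difference was -0.55 ± 0.11 (adjusted p = 0.010, limma), and edgeR on whole reads gave -0.54 (adjusted p = 0.010). It held with each library left out, between -0.62 and -0.45 (adjusted p 0.017 to 0.048, limma), but not without the mean-variance trend (adjusted p = 0.10) or with the spread taken over all 12 testes libraries (adjusted p = 0.16).

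The second row of Ddit3 was at 272, 319 and 268 in HET and at 191, 220 and 223 in KO, again without overlap (-0.43 ± 0.11, adjusted p = 0.029, limma). Its call was lost with any 1 library left out (adjusted p 0.052 to 0.12, limma). Both rows carry the same symbol, and reads they share could have been split between them, so they are not separate evidence. Ddit3 also overlaps Mbd6 and Mars1 in RefSeq by 77 and 71 bases, and the use of strand in counting is not given in the sources used here.

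Cell-type markers differed in the same libraries. The summed signal of 8 round spermatid markers lay at 4694 to 5356 under KO against 6017 to 6732 under HET, and 4 of the 8 were called lower. For 6 spermatocyte markers it lay at 1573 to 1723 under KO against 1298 to 1479 under HET, and 2 of the 6 were called higher. Sums of 6 Sertoli markers (205 to 243 under HET, 273 to 307 under KO, 1 of 3 tested called higher), 7 spermatogonia markers (200.01 to 211 against 268 to 277, 0 of 5 called) and 7 elongating spermatid markers (9560 to 10809 against 8169 to 8183, 1 of 5 called lower) did not overlap either. Among these 5 lists, 1 elongating spermatid marker was at 0 in all 3 KO input libraries. Their part in the fall of Ddit3 was not tested.

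Asns in testes input was at 357, 411 and 370 in HET and 289, 287 and 349 in KO. The highest KO library was just below the lowest HET library, and the difference was -0.30 ± 0.11 (adjusted p = 0.095, limma). Psat1 was at 41.9, 37.9 and 44.6 in HET and 66.5, 63.0 and 55.6 in KO, clear of each other, with a difference of 0.56 ± 0.18 (adjusted p = 0.061, limma). It was called at a filter of 50 (adjusted p = 0.049) and with library totals made equal (0.62, adjusted p = 0.041).

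The remaining rows had low signals. Atf4 was at 47.4, 42.5 and 32.7 in HET and 37.2, 51.7 and 42.5 in KO (0.10 ± 0.21, adjusted p = 0.80, limma). Shmt2 was at 37.2, 14.8 and 33.5 against 37.2, 40.5 and 23.7 (0.31 ± 0.32, adjusted p = 0.59, limma), and Mthfd2 at 14.2, 24.9 and 20.7 against 23.9, 31.5 and 22.1 (0.37 ± 0.27, adjusted p = 0.41, limma). Both folate enzymes overlapped between genotypes. Aldh1l2, called in brain input, had 0 reads in all 3 HET input libraries and 3, 0 and 2 reads in KO, and Trib3 had 0 reads in all 6 input libraries, so neither was tested.

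**Figure D3:**
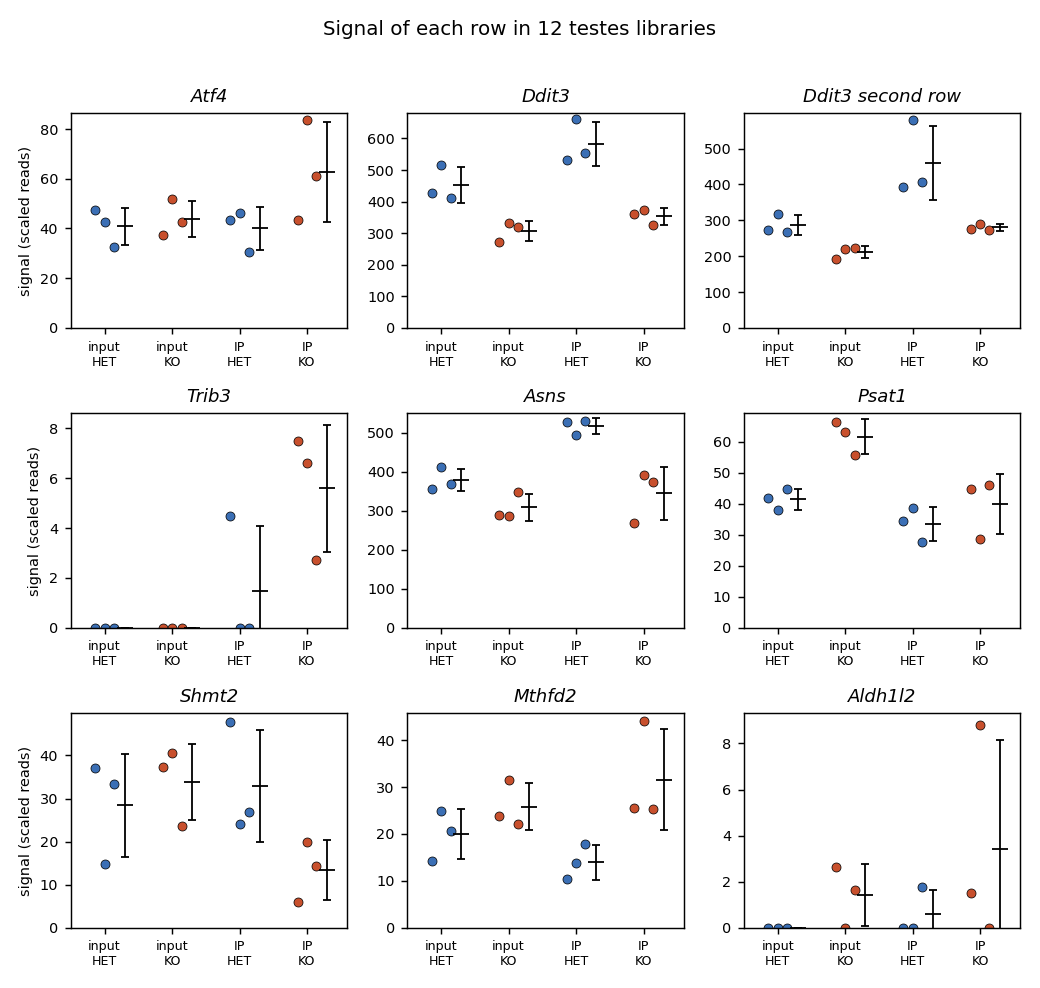
Signal of the 9 testes rows (y axis, scaled reads, linear from 0) in input and IP libraries of HET (blue) and KO (orange), 3 points a group, with the mean and SD as a bar beside them. Both rows of Ddit3 lie lower in KO in input, at 271 to 331 and 191 to 223, and again in the IP.

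The IP asks which RNAs the antibody enriches, and whether that needs PCIF1. In HET, the second row of Ddit3 and Asns were called enriched, 2 of 7 rows against 30.1% of 12387 genes called in either direction and 14.7% called enriched. In KO, the second row of Ddit3 was called enriched and Shmt2 and Psat1 depleted, 3 of 7 rows against 45.5% of genes called (21.2% enriched and 24.3% depleted). The KO to HET difference of this enrichment was called for 0 of 7 rows by limma, against 9.97% of genes, with 1 row (Shmt2) at an unadjusted p below 0.05. edgeR and DESeq2 on whole reads also called 0. The same limma test called 5 of 8 round spermatid markers lower in KO. Their summed IP signal was 11482 to 12287 in HET and 5903 to 7707 in KO. It also called 1 of 6 spermatocyte and 1 of 6 spermatogonia markers lower, 1 of 3 Sertoli markers higher and 0 of 5 elongating spermatid markers. The part of these markers in the IP values below was not tested.

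Asns, which has an annotated A start, was at 528, 495 and 529 in the HET IP, all above the 357 to 411 of HET input, an enrichment of 0.45 ± 0.16 (adjusted p = 0.040, limma). In KO, the IP was at 268, 392 and 374 against 287 to 349 in input, with overlap (0.15 ± 0.16, adjusted p = 0.47, limma). The difference between genotypes was -0.30 ± 0.22 (adjusted p = 0.41, limma), so a loss of enrichment in KO was not shown. The HET call was kept in 5 of the 12 fits that leave out 1 library.

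Psat1, with an A start in 1 of its 2 windows, was at 34.3, 38.5 and 27.7 in the HET IP and 44.9, 28.6 and 46.0 in the KO IP. Against input this was -0.31 ± 0.25 in HET (adjusted p = 0.37, limma) and -0.65 ± 0.25 in KO (adjusted p = 0.043, limma). The KO call was kept in 5 of the 12 fits that leave out 1 library. It was lost without a filter (adjusted p = 0.084, limma) and on whole reads (adjusted p = 0.070 with edgeR and 0.087 with DESeq2). Psat1 was not enriched in either genotype.

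Ddit3, with an annotated G start, was at 533, 660 and 554 in the HET IP and 361, 374 and 324 in the KO IP. All KO libraries lay below all HET libraries in the IP, as they did in input, and the enrichment was 0.36 ± 0.15 in HET (adjusted p = 0.070, limma) and 0.20 ± 0.15 in KO (adjusted p = 0.27, limma). In its second row the enrichment was called in both genotypes, at 0.66 ± 0.16 (adjusted p = 0.0057, limma) and 0.41 ± 0.16 (adjusted p = 0.0498, limma), and the difference was -0.26 ± 0.23 (adjusted p = 0.51, limma). The HET call held in all 12 fits that leave out 1 library, and the KO call in 2 of 12.

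Shmt2, with an annotated C start, showed the largest genotype difference in the IP of the 7 rows. Its IP signal was 47.7, 24.2 and 26.8 in HET and 5.99, 19.8 and 14.4 in KO, from 32, 37 and 30 reads against 4, 9 and 16. These groups did not overlap, but neither did the IP groups of Asns, Mthfd2 and both rows of Ddit3, with Mthfd2 higher in KO and the others lower. How many of all genes separate in this way in the IP was not counted. Enrichment of Shmt2 was 0.24 ± 0.44 in HET (adjusted p = 0.72, limma) and -1.38 ± 0.44 in KO (adjusted p = 0.019, limma). The difference was -1.61 ± 0.62 (adjusted p = 0.11, limma), and the authors' deposited table gives -1.54 with an adjusted p of 0.097 for Shmt2. The KO call was kept in 9 of 12 fits that leave out 1 library.

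Atf4 in the IP was at 43.3, 46.4 and 30.4 in HET and 43.4, 83.7 and 61.3 in KO, near its input in HET (-0.04 ± 0.28, adjusted p = 0.94, limma). Mthfd2 was at 10.4, 13.7 and 17.9 in HET and 25.4, 44.0 and 25.2 in KO, and its KO to HET difference in enrichment was 0.72 ± 0.48 (adjusted p = 0.36, limma). Trib3 gave 3, 0 and 0 reads in the HET IP and 5, 3 and 3 in the KO IP, and Aldh1l2 gave 0, 0 and 2 against 1, 4 and 0, so no enrichment could be judged for them.

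**Figure D4:**
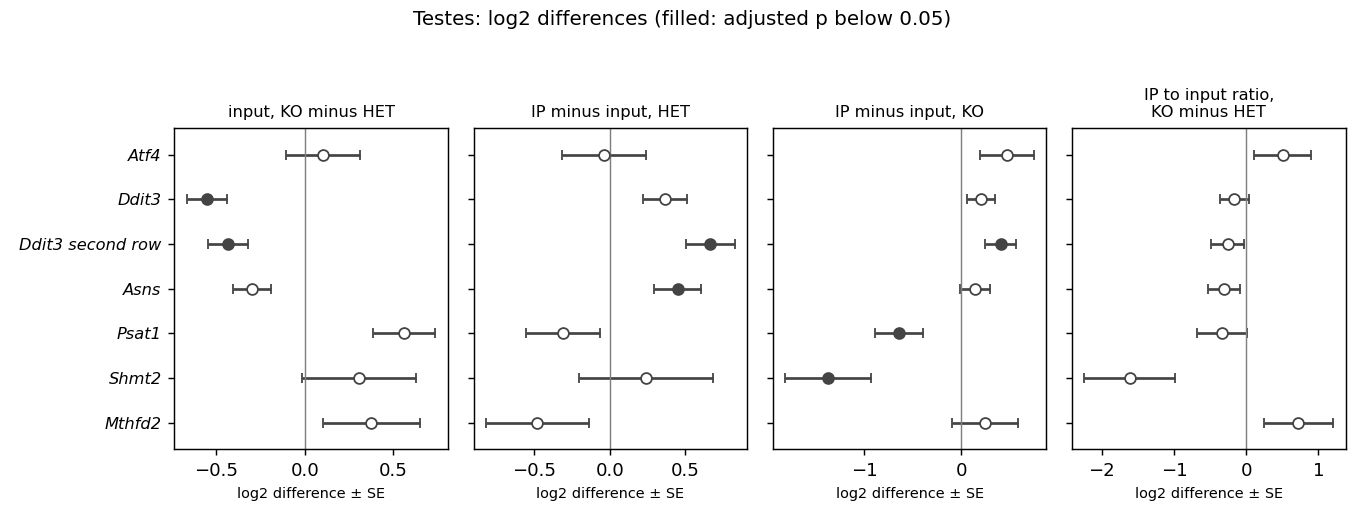
Log2 differences (x axis, ± SE) of the tested testes rows in 4 comparisons, filled where the adjusted p is below 0.05 (limma). Both rows of Ddit3 are lower in KO input (-0.55 and -0.43), and Shmt2 has the lowest KO to HET difference in IP enrichment (-1.61), which was not called.

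Of the 7 lists, testes input gave calls in 1, the ATF6 and XBP1 chaperones, where 2 of 17 were higher and 2 lower, against 9.33% of all genes called and 6.01% called lower. Xbp1, the spliced transcription factor of that branch, was higher (0.55 ± 0.16, adjusted p = 0.04967, limma), as was the chaperone Hsp90b1 (0.45 ± 0.13, adjusted p = 0.045, limma). Creld2 (-0.52 ± 0.12, adjusted p = 0.016, limma) and the co-chaperone Dnajb9 (-0.27 ± 0.08, adjusted p = 0.044, limma) were lower. The other 6 lists had 0 calls by limma, over 8 further ATF4 and CHOP targets, 7 transporters, 17 synthetases, 13 eIF2 genes, 19 folate, serine and glycine enzymes and 11 mitochondrial chaperones and proteases, of which 1, 3, 1, 0, 5 and 3 had an unadjusted p below 0.05.

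Genes whose pattern lay nearest to a member over the 12 libraries of a table were ranked by Pearson correlation of log2 signal, as a description over libraries that share groups and depth. Without subtracting group means, the step from input to footprints or IP, which other genes share, enters the correlation. On that scale the nearest to brain Aldh1l2 was Best1 (r = 0.92), and to brain Shmt2 the transporter subunit Slc3a2 (r = 0.98). For brain Phgdh it was Cyb561d2 (r = 0.95), for brain Asns Snrpd1 (r = 0.98) and for testes Ddit3 the sperm channel gene Catsperd (r = 0.96). No member was the nearest gene of another among these. After the group means were subtracted, the nearest genes were all different. They were Gm25443 for brain Aldh1l2 (r = 0.99), Diaph2 for Shmt2 (r = 0.97), Wdr17 for Phgdh (r = 0.96) and Odf2 for Asns (r = 0.94). For testes Ddit3 it was Hmgb1-ps6 (r = 0.91). On this subtracted scale the correlation of Aldh1l2 with Mthfd2 in brain was -0.72 and with Shmt2 0.24.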

How the data were processed

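The authors' tables, 1 for brain and 1 for testes, give each library's signal per gene, which is a read number scaled by a factor per library. DESeq2 1.25.10, R 3.6.2, DESeq, STAR and Salmon 0.12.0 are listed in the submitters' processing notes. Build, annotation, filters and strand were not given in the sources used here. The deposited tables also hold the authors' log2 difference and adjusted p-value per gene for the KO against control change in footprint or IP relative to input. Of 42 labelled samples, 24 libraries in 8 groups were used, and 18 tissue RNA-seq samples were not used here.

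Log2(signal + 1) was fitted with limma 3.58.1 (R 4.3.3, mean-variance trend) for genes reaching a signal of 10 in 3 or more libraries, with Benjamini-Hochberg adjustment at 0.05 over all genes tested. This scale understates the change of low genes. KO against control in input, or in footprints, used 6 libraries, and the ratios and comparisons within a genotype used a model over the 12 libraries of a table. In testes, dividing by the value of 1 read gave whole numbers for 100% of values (tolerance 0.01), so reads were recovered, and edgeR 4.0.16 and DESeq2 1.42.0 were run as alternatives. On these reads edgeR called 1089 genes in testes input, 4121 and 5544 in IP against input in HET and KO, and 1444 in the difference of the ratio. In brain 7.72 to 15.5% were whole, so reads there are estimates from the most frequent value, and no count model was run. Other alternatives changed the pseudocount (0.5, 10), the filter (none, 50), the scaling, the trend, the libraries that set the spread, and left out each library.

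All 10 genes were named in every comparison, and from each list the called genes with the lowest p, at most 5. In the comparisons of footprints or IP with input within a genotype, list genes are named in the closing section. Some list genes are not reported here. The genes and lists were chosen with earlier results of these data known. Only the fits of KO against control in input or footprints were run on simulated data, with a fixed, large difference. The ratios and the comparisons within a genotype were not simulated.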

Additional observations from a re-analysis of the deposited data

Results flagged for a closer look

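In 4 genes of the lists the IP to input enrichment in testes differed between KO and HET by the interaction test (limma, 12 libraries, adjusted over 12387 genes). Calls were 2 of 17 synthetases, 1 of 15 eIF2 genes and 1 of 17 ATF6 and XBP1 chaperones. The other lists had 0 calls, over 9 ATF4 and CHOP targets, 7 transporters, 19 folate, serine and glycine enzymes and 12 mitochondrial genes. Over all genes 9.97% were called, so these counts set no list apart. Kars, the lysyl-tRNA synthetase, had a mean IP signal of 428 ± 45 (SD over 3 libraries) under HET and 885 ± 140 under KO at nearly level input, a log2 difference of 1.06 ± 0.21 (adjusted p = 0.0073, limma). Vars, the valyl-tRNA synthetase, went from 449 ± 94 to 719 ± 77, a difference of 0.75 ± 0.21 (adjusted p = 0.034, limma). Eif2s2, the beta subunit of eIF2, went from 2115 ± 273 to 1050 ± 169, a difference of -1.0 ± 0.18 (adjusted p = 0.0043, limma). Creld2, an endoplasmic reticulum protein, went from 166 ± 64 to 43.8 ± 10.7, a difference of -1.34 ± 0.34 (adjusted p = 0.021, limma), and its input was lower in KO too, at 215 ± 12 and 150 ± 15.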

How the results depend on the processing

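No paired analysis was possible because the labels carry no replicate numbers. With all libraries in, the 1 brain input call fell to 0 with a filter of 50 and with the spread over all 12 libraries, and to 0 with any library left out. The 2 testes input calls, both of them rows of Ddit3, fell to 0 without the trend and with the spread over 12 libraries. They fell to 1 with any library left out. The 2 calls for HET IP against input became 1 without a filter, with equal totals and without the trend, and ranged from 1 to 2 with a library left out. The 3 in KO ranged from 0 to 3. Footprint calls ranged from 0 to 1, ratio calls from 0 to 1 and footprint against input from 2 to 6. The cause was not tested.

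With equal totals, uncalled footprint differences changed sign for Aldh1l2 (0.026), Ddit3 (0.035) and Chac1 (0.22), and the ratio for Atf4 (0.076). Footprint against input turned for Mthfd2 (-0.96), Aldh1l2 (-0.25), Psat1 (-0.48), Chac1 (-0.56), Asns (-0.086), Atf4 (-0.69) and Phgdh (-0.52). With a library left out, signs turned in brain input for Mthfd2 (-0.59 to 0.070), Ddit3 (-0.083 to 0.18) and Psat1 (-0.51 to 0.0053). They turned in footprints for Aldh1l2 (-0.84 to 0.38), Ddit3 (-0.44 to 0.11; second row -0.32 to 0.51), Atf4 (-0.053 to 0.52) and Chac1 (-0.29 to 0.13), and in the ratio for Asns (-0.11 to 0.18), Ddit3 (-0.50 to 0.043; second row -0.44 to 0.46) and Atf4 (-0.45 to 0.12). Footprint against input turned for Mthfd2 (-0.40 to 0.76), testes input for Shmt2 (-0.094 to 0.54) and Atf4 (-0.046 to 0.22), HET IP for Atf4 (-0.19 to 0.15) and Shmt2 (-0.16 to 0.48), and KO IP for Mthfd2 (-0.011 to 0.39).

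Genes called over whole tables also moved. Brain input (39) gave 25 at a filter of 50 and 7 to 24 with a library left out. Footprints (32) gave 21 at a pseudocount of 0.5 or equal totals, 9 at a filter of 50, 143 with the spread over 12 libraries and 0 to 956 with a library left out. The ratio (31) gave 15 at a filter of 50, 48 without the trend and 15 to 874. Testes input (1052) gave 33 without the trend, 24 with the spread over 12 libraries and 281 to 1433. The IP ratio (1235) gave 793 without a filter, 742 without the trend and 546 at the lowest with a library left out. With equal totals the share of higher calls went from 35.6% to 55.8% in testes input and from 65.6% to 85.7% in footprints. Aldh1l2 had an estimated 8.12 to 114 reads per brain library.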

Other observations

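Within WT brain, footprints against input also separated members of the lists (limma, adjusted over 16527 genes). Over all genes 54.3% were called and 25.2% were called higher, so the counts below are a description and set no list apart. Among further ATF4 and CHOP targets, 7 of 19 were higher and 2 lower in footprints, with Nupr1 at 1.86, Atf5 at 1.42, Gpt2 at 0.92 and Pck2 at 0.80 on the log2 scale, and Cebpb at -1.03. The eIF2 phosphatase subunits Ppp1r15a and Ppp1r15b were at -2.46 and -1.35, while Impact was at 1.27 and Eif2b1 at 1.57, and Eif2b5 at -1.14. The transporters Slc3a2, Slc7a5 and Slc6a9 were at 1.56, 1.49 and 1.18. Of the synthetases, 7 of 20 were higher and 0 lower, led by Vars (1.96), Farsa (1.66) and Yars (1.22), with Aars and Wars at 0.64 each. Among serine, glycine and folate enzymes 6 of 25 were higher and 5 lower, with Aldh1l1 at 0.88, Dld at 0.85 and Sfxn1 at -1.45. Of the ATF6 and XBP1 chaperones 9 of 19 were higher and 3 lower, with Syvn1 at 3.95, Calr at 2.94, Herpud1 at 1.35, Hsp90b1 at 0.84 and Atf6 at -1.39. Mitochondrial Trap1, Hspd1, Yme1l1 and Hspa9 were at 0.90, 0.69, 0.67 and 0.59, and Afg3l2 at -0.70. All these values shift with the scaling of the libraries, by about the change in the median of all genes from -0.09 to -1.18.

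Over all genes, IP against input called 30.1% in HET and 45.5% in KO testes. In HET, it called Ppp1r15a (1.18), Nupr1 (1.29), Slc6a9 (1.34), Manf (0.83), Dnajb9 (0.79), Eif2b3 (0.76), Eif2b2 (0.61) and Kars (0.90) enriched. It called Slc3a2 (-1.77), Slc7a5 (-0.97), Vars (-1.50), Cars (-1.11), Eprs (-0.92), Qars (-0.78), Eif2b5 (-1.10), Eif2s2 (-0.69), Slc25a32 (-2.19), Syvn1 (-0.87), Hspa5 (-0.82), Pdia6 (-0.81), Spg7 (-1.10) and Txnip (-0.81) depleted. In KO testes the enriched genes were Atf5 (1.24), Eif4ebp1 (1.22), Nupr1 (1.54), Slc7a6 (0.56), Kars (1.97), Eif2b2 (0.81), Eif2b4 (0.61), Ppp1r15a (0.92), Dnajb9 (1.08), Yme1l1 (0.63), Htra2 (0.74), Clpx (0.54) and Trap1 (0.43). The depleted ones were Txnip (-0.85), Slc3a2 (-1.20), Eprs (-1.20), Sars (-2.08), Vars (-0.75), Cars (-1.21), Eif2s2 (-1.69), Gcn1l1 (-0.72), Mtr (-1.62), Aldh1l1 (-1.33), Slc25a32 (-2.43), Mthfs (-2.40), Mthfd1 (-1.13), Syvn1 (-1.12), Creld2 (-1.78), Pdia6 (-0.73), Pdia4 (-1.02) and Dnaja3 (-0.90). HET and KO calls come from separate contrasts, and a call in 1 genotype does not show a difference from the other.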
